A study of Aspergillus nidulans with 2 samples.

Results

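The genes described here are the 109 genes of Aspergillus nidulans (Emericella nidulans), a filamentous fungus, that carry only a locus tag and had a log2 ratio of -1 or less on each of 2 arrays comparing menadione-exposed with untreated mycelium. A locus tag is the serial name, here beginning with ANIA_, that a genome annotation gives to a predicted gene, and a log2 ratio of -1 is a 2-fold lower ratio. Of the 1455 genes with values on both arrays, 1242 had only a locus tag, and the 109 were 8.78% of these. They were chosen by these very values, so the values are given as a description and no test was made of them. Mycelium of strain FGSC 26 grew for 18 h at 37 °C in minimal-nitrate medium with yeast extract, and was then moved to fresh minimal-nitrate medium. Treated mycelium received 0.8 mM menadione as its sodium bisulfite compound for 6 h, and the control was moved to the same medium and left untreated for 6 h. RNA from both was hybridised together to 2-colour cDNA arrays of 3533 expressed sequence tags, with menadione RNA in Cy5 on the flip array and in Cy3 on the flop array.

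Both arrays form 1 group, and the labels do not say whether they carried RNA from separate cultures, so each SD below measures a spread that may be technical. The dyes were exchanged between the arrays, so a dye effect on a gene enters its gap and its SD. With 2 arrays it cannot be told apart from other differences between them. Menadione RNA was channel 1 of both samples, and a negative value is read here as lower with menadione. The deposited table states neither this direction nor the base of the logarithm. The opposite direction would turn every "lower" below into "higher", and as a natural logarithm a value of -1 would be a 2.72-fold lower ratio. If both columns were red over green, the treatment would run in opposite directions in them, and with the sign of the flop array turned 2 locus-tag genes meet the limit. The columns correlated at a Pearson r of 0.844 over the 2265 probes with both values, which shows that they run the same way or share a dye effect, and not which way they run. The values are ratios only, so no level of a marker gene could be set against the labelled tissue. Fewer cells of a type and less RNA per cell cannot be told apart in RNA from whole mycelium.

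Menadione is a quinone that takes up electrons from cellular reductases and passes them to oxygen, which forms superoxide. In A. nidulans, the AP-1 type transcription factor NapA and the stress-activated MAP kinase SakA are known to act in the response to oxidative stress. Genes with only a locus tag have no name of their own in this annotation. The probes come from expressed sequence tags, which are partial sequences of cDNA clones. RefSeq classed all 109 genes as protein-coding, as it did 1239 of the 1242 locus-tag genes with both values, and the other 3 as pseudogenes. Product descriptions were not used here, so no function is stated for any locus tag, and the genes are described by their values, their probes and their neighbours.

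The 109 genes had a median log2 ratio of -1.48 on the flip array, between -4.04 and -1, and of -1.91 on the flop array, between -5.62 and -1.01. Over all 1242 locus-tag genes the medians were -0.02 and 0.095. The mean of both arrays was -4.24 for the lowest of the 109 and had a median of -1.71, a 3.26-fold lower ratio. Most of the genes lay near the limit: the weaker of the 2 values was between -1 and -1.5 for 63 genes and between -1.5 and -2 for 23. For 23 genes both arrays were at -2 or less, and for 6 both were at -3 or less. In the other direction, 100 locus-tag genes (8.05%) were at 1 or more on both arrays. Among the 213 genes with a symbol, 24 (11.3%) were at -1 or less on both.

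**Figure D1:**
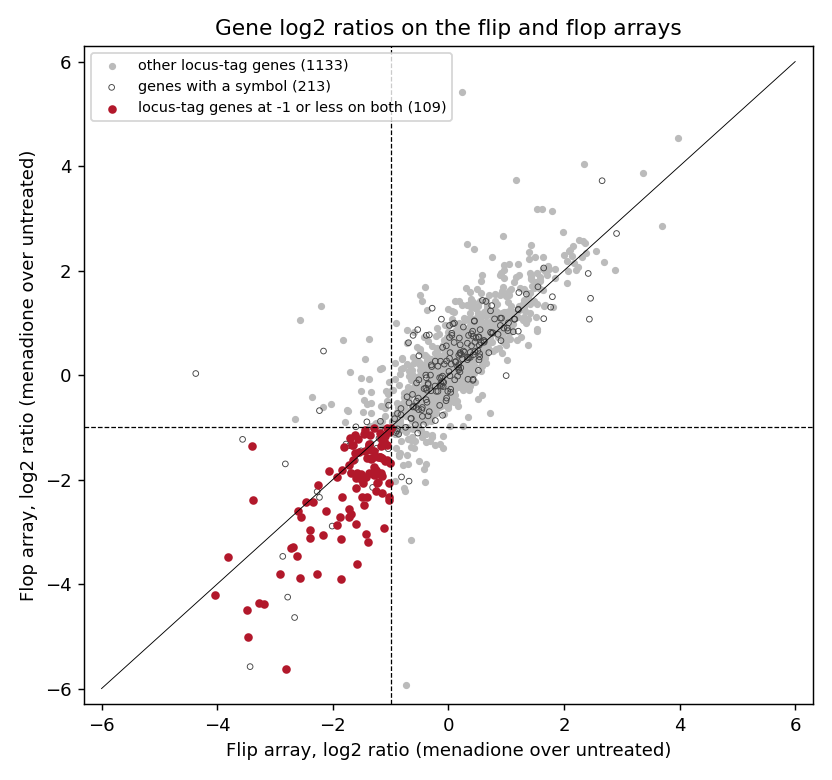
Log2 ratio of each gene on the flip array (x axis) and the flop array (y axis), with the 109 lower locus-tag genes in red, other locus-tag genes in grey and the 213 genes with a symbol as open circles; dashed lines mark -1 and the solid line equal values. Most red points lie below the solid line: the flop value was the lower one for 84 of the 109 genes.

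The lowest gene by the mean of both arrays was ANIA_08483, at -3.46 (flip) and -5.01 (flop), 18.8-fold lower with menadione (log2 mean -4.24 ± 1.10, SD, n = 2). ANIA_08407 followed at -2.81 and -5.62 (mean -4.22 ± 1.99). ANIA_08953 was at -4.04 and -4.21 (mean -4.13 ± 0.12). These 3 genes had almost the same mean, but their arrays differed by very unlike amounts: ANIA_08953 was repeated within 0.17, whereas the values of ANIA_08407 lay 2.81 apart. Their order by the mean is therefore within the spread between the arrays.

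ANIA_00347 was at -3.48 (flip) and -4.5 (flop), 15.9-fold lower by the mean of both. ANIA_09468 was at -3.27 and -4.36, and ANIA_04722 at -3.19 and -4.39. ANIA_01619, at -3.81 and -3.48, was the only one of the first 13 genes with its lower value on the flip array. ANIA_08483, ANIA_08953, ANIA_00347, ANIA_09468, ANIA_04722 and ANIA_01619 are the 6 genes at -3 or less on both arrays, and each was measured by 1 probe.

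The next gene, ANIA_02924, had 2 probes on both arrays and gene values of -2.91 (flip) and -3.8 (flop). ANIA_11062 was at -2.56 and -3.88, and ANIA_05960 at -2.62 and -3.47. For all 3 the flop value was the lower, and the mean was between 8.25-fold and 10.2-fold lower. ANIA_05017 was at -2.27 and -3.8, ANIA_02278 at -2.73 and -3.31, and ANIA_00393 at -2.69 and -3.29. The means of these last 3 genes, -3.04, -3.02 and -2.99, differed by less than the spread between the arrays of any of them, whose SD was 0.41 for ANIA_02278, the closest repeat of the 3.

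ANIA_00137 was unlike its neighbours in the order, at -3.38 (flip) and -2.4 (flop). ANIA_09198 showed the opposite gap, at -1.85 and -3.91. ANIA_05027 was at -2.4 and -3.11, and ANIA_08007 at -2.39 and -2.96. The mean of these 4 genes was between -2.89 and -2.68, so genes of almost equal mean reached it from different sides.

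A close repeat was measured for ANIA_05338, at -2.6 (flip) and -2.61 (flop), which was 6.08-fold lower by the mean with an SD of 0.0071. ANIA_04464 was at -2.55 and -2.71 (mean -2.63 ± 0.11), ANIA_04483 at -2.46 and -2.43 (mean -2.45 ± 0.02) and ANIA_02087 at -2.35 and -2.42 (mean -2.39 ± 0.05). These 4 genes had the smallest gaps between the arrays among the 25 lowest, followed by ANIA_08953. Wider gaps were measured for the 4 other genes of the 25. ANIA_00923 was at -2.17 and -3.06, ANIA_11139 at -1.58 and -3.61, ANIA_00907 at -1.86 and -3.14, and ANIA_10673 at -1.92 and -2.86.

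**Figure D2:**
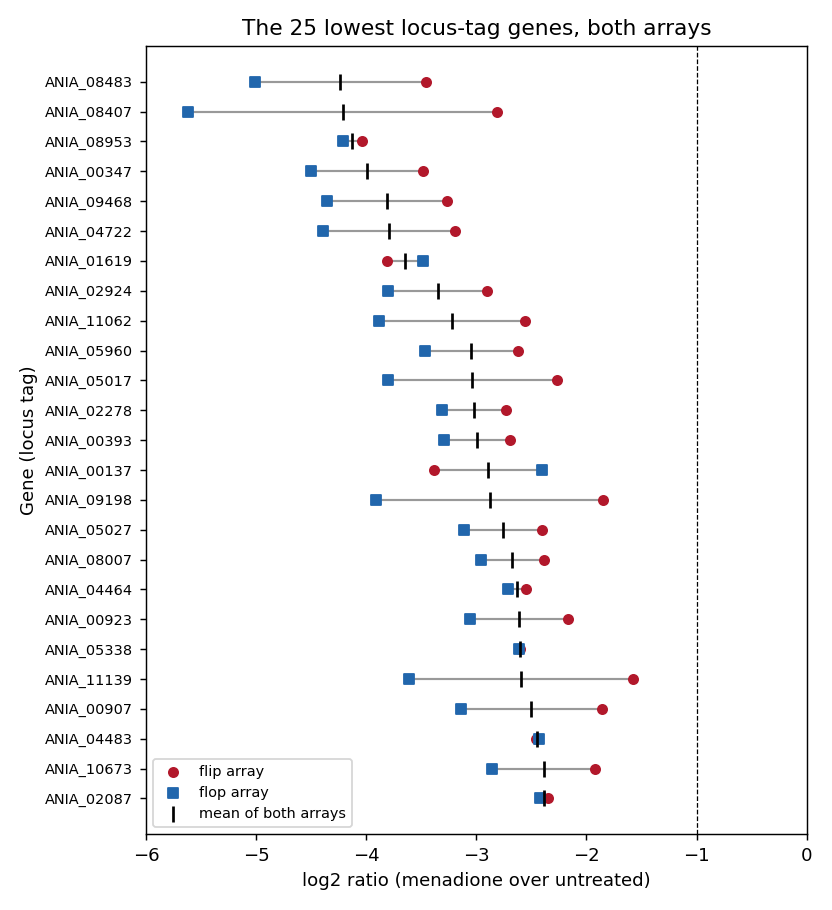
Log2 ratio on the flip array (red circles), the flop array (blue squares) and their mean (black bars) for the 25 lowest of the 109 genes, ordered by the mean; the dashed line marks -1. Lines join the 2 values of a gene, which lay 2.81 apart for ANIA_08407 and 0.01 apart for ANIA_05338.

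Below these 25 the ratios came closer to the limit and, in the last of them, to each other. The next 49 genes had means from -2.38 to -1.5, or 5.21-fold to 2.83-fold lower, with flip values from -3.4 to -1.02 and flop values from -3.19 to -1.36. For 41 of these 49 genes the flop value was the lower. The last 35 genes had means above -1.5, with flip values from -1.7 to -1 and flop values from -1.69 to -1.01, and the flop value was the lower for 21. The median SD between the arrays was 0.63 in the first 25 genes, 0.42 in the next 49 and 0.18 in the last 35. The rule itself bounds this spread. With both values at -1 or less, a gene with a mean near the limit cannot have values far apart. The fall in SD is therefore no separate result about the genes.

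The gap between the arrays had a direction over the 109 genes. Array and dye assignment changed together, so a dye effect and other differences between the arrays cannot be told apart in it. The flop value was below the flip value for 84 genes (77.1%) and above it for 25, with a median difference, flop minus flip, of -0.46. Over all 1242 locus-tag genes the flop value was below the flip value for 40.4%, and the median difference was 0.09. The flop array also had the wider spread of values over all its probes, with an SD of 1.16 against 0.965 on the flip array. With the flop array scaled to the SD of the flip array, the median difference over the 109 genes was -0.078 and the flop value was the lower for 62. With each array centred on its median instead, the difference was -0.58 and the flop value was the lower for 94. The source of the gap was not tested.

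The arrays differed by more than 1 for 21 of the 109 genes (19.3%), against 103 of all 1242 locus-tag genes (8.29%). Most locus-tag genes had far smaller ratios, and no other set with equally large ratios was compared. The widest gap after those of ANIA_08407 and ANIA_09198 was that of ANIA_03203, at -3.4 (flip) and -1.36 (flop). Its lower value was on the flip array, as for 25 of the 109. ANIA_11139, at -1.58 and -3.61, and ANIA_03553, at -1.12 and -2.93, complete the 5 widest gaps. The SD over the arrays of these 5 genes was between 1.28 and 1.99, against a median of 0.35 over the 109 and 0.20 over all locus-tag genes.

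The limit separated genes whose values were alike. Just inside it were ANIA_04876, at -1 (flip) and -1.01 (flop), ANIA_05244 at -1.01 and -1.69, ANIA_01571 at -1.28 and -1.01, ANIA_07474 at -1.02 and -2.4, and ANIA_04865 at -1.06 and -1.02. Just outside it were ANIA_05014 at -0.99 and -1.68, ANIA_00676 at -1.35 and -0.98, ANIA_10635 at -1.18 and -0.98, ANIA_04557 at -0.97 and -1.01, and ANIA_03469 at -0.96 on both. ANIA_05244 and ANIA_05014 differed by 0.02 (flip) and 0.01 (flop), and only the first was counted. Judged by the flip array, whatever the flop array gave, 146 locus-tag genes were at -1 or less, and by the flop array 160. Both counts include the 109: 37 genes were at the limit on the flip array only and 51 on the flop array only. The gene with the lowest flop value of all locus-tag genes, ANIA_01160 at -5.94, was not among the 109 because its flip value was -0.74; it was singled out after its values were seen.

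A gene can be represented by several probes, and whether these agree says how far a gene value is that of the gene. Of the 109 genes, 99 (90.8%) had 1 probe with values on both arrays, against 81.3% of all locus-tag genes, and 10 had 2 such probes. Because the rule averages probes, a gene with 1 low probe among several can miss the limit, as 29 genes described below did. The higher share of 1-probe genes is therefore no separate result. Adding the probes that were empty on the flop array only, 16 genes had more than 1 measured probe, and the other 93 rest on a single one. Of the 139 probes that the platform annotation assigns to the 109 genes, 119 had values on both arrays, 9 had only a flip value, 0 had only a flop value, and 11 were empty.

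Both probes were at -1 or less on both arrays in 3 of the 10 genes with 2 such probes. The probes of ANIA_02924 were at -3.76 (flip) and -5.77 (flop) and at -2.05 and -1.83, those of ANIA_08737 at -2.31 and -3.19 and at -1.93 and -2.03, and those of ANIA_04802 at -1.69 and -2.98 and at -1.14 and -1.69. In these 3 genes all 12 values were low, although the means of the ANIA_02924 probes lay 2.83 apart. ANIA_02582 came close, with probes at -1.28 and -2.08 and at -0.77 and -2.07, whose means were 0.26 apart.

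In the other 6 genes, 1 probe carried the low gene value. The probes of ANIA_06795 were at -3.18 (flip) and -4.03 (flop) and at 0.16 and 0.05, and those of ANIA_10949 at -2.54 and -3.99 and at 0.05 and 0.35. The probes of ANIA_00205 were at -2.5 and -3.35 and at 0.04 and -0.35. In these 3 genes a probe near 0 was averaged with a probe at or below -2.5 on both arrays, and the gap between the probe means was larger than the gap between the arrays for any of these probes. ANIA_03452 had probes at -2.03 and -2.68 and at -0.56 and -0.82, ANIA_03470 at -1.58 and -1.68 and at -0.47 and -0.49, and ANIA_04865 at -1.55 and -1.54 and at -0.57 and -0.5. In these last 3 genes both probes were below 0, with 1 of them short of the limit. Over the 10 genes the median gap between the 2 probe means was 1.41, and the median SD between the arrays of the 20 probes was 0.33.

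**Figure D3:**
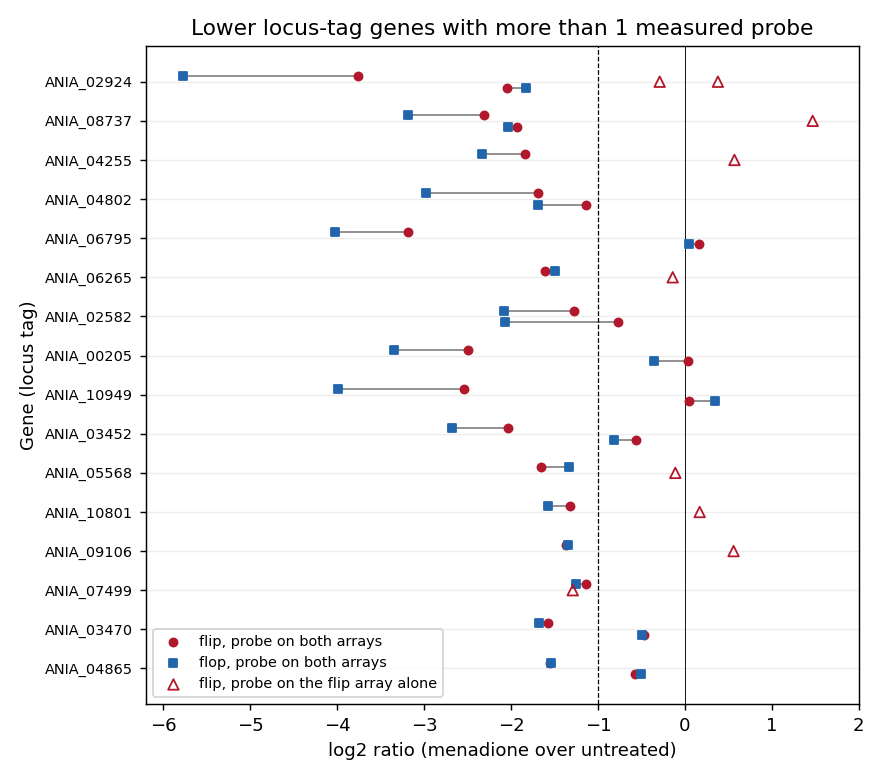
Log2 ratios of the measured probes of the 16 lower locus-tag genes with more than 1 measured probe: flip (red circles) and flop values (blue squares) of a probe are joined by a line, open triangles are probes with no flop value, and the dashed line marks -1. All measured probes lay at -1 or less in 2 of the 16 genes, ANIA_04802 and ANIA_07499.

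The flip-only probes, those with no flop value, took no part in the choice of the genes. There were 9 of them in 8 genes, between -1.29 and 1.47 with a median of 0.17. The only one at -1 or less was that of ANIA_07499, at -1.29, beside the gene's other probe at -1.14 and -1.25. The other 8 were not 2-fold lower. ANIA_08737, whose 2 probes on both arrays were low, had another at 1.47, and ANIA_02924 had further probes at 0.38 and -0.29. ANIA_04255, at -1.84 and -2.33 by its other probe, had one at 0.57, and ANIA_09106, at -1.37 and -1.34, had one at 0.56. ANIA_10801, at -1.32 and -1.58, had one at 0.17. Closer to 0 were those of ANIA_06265, at -0.14 beside -1.61 and -1.5, and ANIA_05568, at -0.11 beside -1.66 and -1.33. The share of these probes at -1 or less, 1 of 9 (11.1%), was near that of the 137 flip-only probes of the other locus-tag genes, of which 14 (10.2%) were at -1 or less with a median of 0.02. The rule that left a probe's flop cell empty is not stated in the labels.

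The same can be asked of every locus-tag gene with several probes on both arrays, whether or not its mean passed the limit. There were 232 such genes, with 502 probes, of which 42 (8.37%) were at -1 or less on both arrays. These 42 probes belonged to 39 genes, the 10 described above and 29 whose mean did not pass the limit. Each low probe was set beside every other probe of its gene, which gave 52 pairs, 13 of them in the 10 genes and 39 in the 29. The other probe was also at -1 or less on both arrays in 6 pairs (11.5%), which are the 3 genes ANIA_02924, ANIA_08737 and ANIA_04802 counted from both of their probes. That share was near the 8.37% of all probes of such genes. The median of the other probe over the 52 pairs was 0.08, and its mean was above 0 in 32.

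In 4 of the 29 genes another probe was at 1 or more on both arrays. They are named after their values were seen. ANIA_05634 had probes at -2.99 (flip) and -4.91 (flop) and at 1.43 and 1.48, and ANIA_08202 at -1.8 and -2.77 and, in the other, a mean of 1.45 over the arrays. ANIA_05899 had probes at -1.57 and -2.28 and at 1.63 and 1.37, and ANIA_01215 at -1.43 and -1.59 and at 1.37 and 1.76. Each of these probes was repeated on both arrays with the same sign, so the platform annotation assigned to 1 gene probes that were 2-fold in opposite directions. For the 93 genes with a single measured probe no such comparison could be made.

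**Figure D4:**
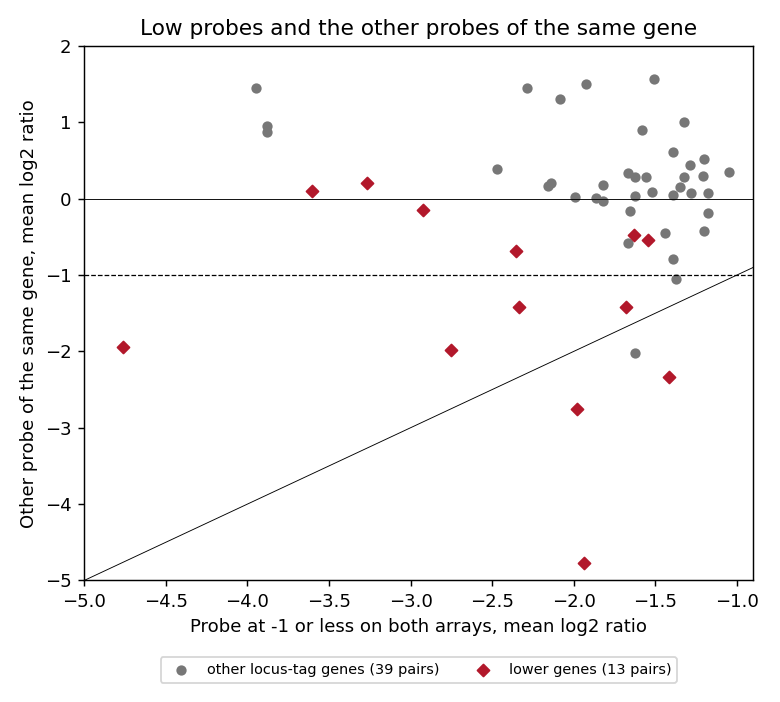
Mean log2 ratio of each probe at -1 or less on both arrays (x axis) and of another probe of the same gene (y axis), for the 13 pairs in the lower locus-tag genes (red diamonds) and the 39 pairs in other locus-tag genes (grey circles); the dashed line marks -1 and the sloping line equal values. The other probe lay above 0 in 32 of the 52 pairs.

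Neighbouring genes were taken from the RefSeq order of assembly ASM1142v1. Position took no part in the choice of the genes, but the values of neighbours did: a neighbour with only a locus tag that met the limit would itself be among the 109, so these values are a description too. Of the 109 genes, 29 had an adjacent gene with values on both arrays, 31 adjacent genes in all. Their median was 0.03, the same as over all 1455 genes, with 15 below 0 and 16 above. At -1 or less on both arrays was 1 of the 31 (3.23%), the histone H3 gene hhtA at -3.56 and -1.23, beside ANIA_00732 at -1.56 and -1.23. This gene has a symbol, unlike the 109. The share at -1 or less on both was 8.78% of all locus-tag genes and 11.3% of genes with a symbol. At 1 or more on both were 4 (12.9%, against 8.05% of all locus-tag genes): ANIA_08858 at 1.43 and 1.85 beside ANIA_08857, ANIA_04463 at 1.43 and 1.84 beside ANIA_04464, ANIA_02581 at a mean of 1.495 beside ANIA_02582, and ANIA_06796 at 1.24 and 1.67 beside ANIA_06795.

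Of the 29 genes with a measured adjacent gene, 0 had another of the 109 there, and the rest of the 109 could not have had one. Of the other 1133 locus-tag genes, 30 (2.65%) were adjacent to one of the 109. These 30 are the adjacent locus-tag genes already described, so the counts are not separate results. Within 5 genes of each other lay 8 pairs of the 109, a window chosen after the values were seen. This placed 13 of the 109 (11.9%) near another of them, against 113 of the other 1133 locus-tag genes (9.97%). The lowest such pair was ANIA_09468 and ANIA_05960, 4 positions apart, with means of -3.82 and -3.05. ANIA_00137 and ANIA_00135 were 2 positions apart at -2.89 and -1.73. ANIA_08857, ANIA_08856 and ANIA_08853 formed a group within 5 positions at -1.94, -1.71 and -1.35. The gene on the outer side of ANIA_08857, ANIA_08858, was more than 2-fold higher on both arrays, and ANIA_08855, beside ANIA_08856, was at -0.41 and -0.3. ANIA_03468 and ANIA_03470, at means of -1.39 and -1.06, flanked ANIA_03469, which was just outside the limit at -0.96 on both arrays.

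**Figure D5:**
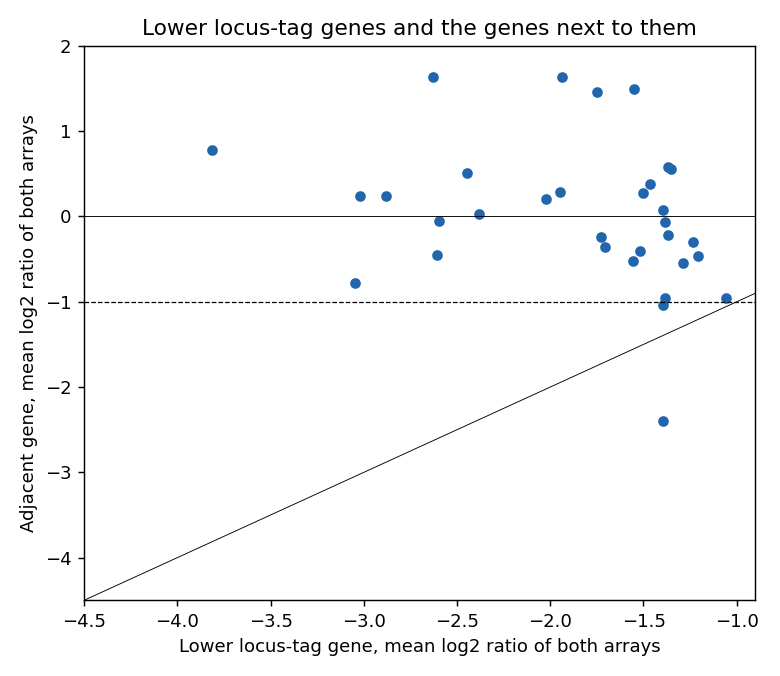
Mean log2 ratio of both arrays for the lower locus-tag genes with a measured adjacent gene (x axis) and for that adjacent gene (y axis), in 32 pairs; the dashed line marks -1 and the sloping line equal values. The adjacent genes spread around 0, from -2.40 for hhtA to 1.64 for ANIA_08858.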

How the data were processed

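Ratios on a log scale, read here as log2, were deposited by the authors as a series matrix. Per the series' design text, arrays were read with a GenePix 4000B scanner, ratios came from GenePix Pro 3.0, and a LOESS normalization block by block was done in SAS for Windows version 8. The titles call each column a summary of normalized data. Background correction, the way spots were combined and the rule for empty cells are not stated in the labels. Base and direction are not stated: the values were read as log2 of menadione over untreated, without further scaling. Intensities were not used here, so the depth behind a ratio is unknown and the number of arrays, 2, limits the precision.

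Genes were named by the platform annotation, which is old, through RefSeq (ASM1142v1); all 109 matched. It names 1 gene for each of 2779 probes and none for 754. Probes of a gene with values on both arrays were averaged per array with pandas 2.3.3 in Python 3.11.15. The members and lists were chosen with earlier results of these data known. The genes named were the 25 lowest, those with further probes, 5 on each side of the limit and the 5 widest gaps. Product classes and promoter motifs were not analysed here. Errors are SDs over the arrays, n = 2. Checked on a simulated menadione comparison of 1455 genes, the selection found 150 of 150 planted genes and 0 others. The planted genes lay far beyond the limit, with little noise and no disagreement between probes. This checks that the selection runs as written, and not how accurate it is for genes near the limit. Other limits, log bases, scalings, probe rules and single arrays were tried.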

Additional observations from a re-analysis of the deposited data

How the results depend on the processing

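Against the 109 locus-tag genes at -1 or less on both arrays, a limit of 1.5-fold gave 196, of 3-fold 40 and of 4-fold 23, and reading the values as natural logarithms gave 164. With the sign of the flop array turned, 2 genes remained (ANIA_03741 at -2.56 and 1.06, ANIA_05165 at -2.2 and 1.32, as deposited). Judged by 1 array, whatever the other gave, 146 to 160 genes were at the limit, the 109 included. Centring gave 112 genes, 107 of them among the 109, and scaling the flop array gave 97, all among the 109. Counting genes with every probe at the limit gave 102, of which 99 had 1 probe on both arrays, so that this rule changed nothing for them. Counting genes with at least 1 probe at the limit gave 138, averaging probes of either array 104, and adding genes with a symbol 133. The 3 genes with both probes at the limit became 7 with all probes below 0 and 4 at 1.5-fold, and were 3 to 4 when judged by 1 array. The single flip-only probe at the limit became 4 below 0. The median difference, flop minus flip, moved from -0.46 to -0.078 with the flop array scaled and to -0.58 with centring. No paired analysis was possible because both arrays form 1 group and each value is already a ratio of 2 channels. With 2 arrays and no intensities, ratios of dim and bright spots carry the same weight here.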

Other observations

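Of the 1760 locus-tag genes on the array, 327 had values on the flip array alone, and 34 of these (10.4%) were at -1 or less there. The lowest were ANIA_01162 at -4.06, ANIA_05933 at -3.55 and ANIA_06359 at -3.51, each without a value on the flop array. Of the 478 probes with both values and no gene name in the annotation, 38 (7.95%) were at -1 or less on both arrays, with medians of -1.6 (flip) and -2.02 (flop). Besides ANIA_01160, 1 locus-tag gene was at -3 or less on the flop array and above -1 on the flip array, ANIA_05447 at -3.16 and -0.65.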
